A study of Mus musculus with 20 samples.

Results

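The 10 genes described here belong to the natural killer (NK) cell axis and were measured by RNA sequencing in 20 libraries of cells sorted from mouse mammary tumours. Of the 52783 genes in the table, Ncr1, Klrb1c, Klrd1, Klrk1 and Klre1 encode NK cell receptors, Eomes and Tbx21 encode transcription factors, Il2rb and Il15 encode a receptor chain and its ligand, and Raet1d encodes a ligand of an NK cell receptor. The members were chosen by name with their levels and fold changes in an earlier analysis of these libraries in view. Their levels and fold changes between the groups are therefore given as a description, with no p-value, and counts of members past a threshold are not evidence about the genes.

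NK cells are innate lymphocytes that kill tumour cells and secrete interferon gamma. Activating receptors such as NKp46 (Ncr1) and NKG2D (Klrk1) pass their signal through adaptor proteins, whereas CD94 (Klrd1) pairs with NKG2 chains to form inhibitory or activating receptors. Interleukin 15, presented by other cells on its receptor alpha chain, sustains NK cells through the receptor beta chain (Il2rb), and the T-box factors Eomes and T-bet (Tbx21) direct NK cell maturation. Stressed and transformed cells can display ligands of NKG2D, to which the Rae-1 family with Raet1d belongs.

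Tumours were grown in the mammary fat pad of young adult female BALB/cJ mice after injection of 1000000 cells of 66cl4 or 67NR, established lines of the 4T1 model, with no further treatment. 66cl4 tumours metastasise and 67NR tumours do not. Each of 5 mice with a 66cl4 tumour (animals 3, 4, 5, 6 and 7) and 5 mice with a 67NR tumour (animals 1, 4, 5, 6 and 7) gave 1 library of CD45+ cells, which are leukocytes, and 1 of CD45- cells, which hold tumour cells and stroma. Each tumour type rests on 1 injected line. Animal numbers in both tumours are labels of different mice.

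Libraries held 12960000 to 28080314 counts, so that 3 counts, the limit set by a count of 0, made up 1.07e-05% to 2.31e-05% of a library (counting error only). A level is the count divided by the library's size factor (normalised count), given below in the order of the animals. The level of Ptprc, which encodes CD45, was 15890.1 to 28449 in the CD45+ libraries and 10.6 to 473 in the CD45- libraries, which matched the titles that assigned them to groups. The labels of 66cl4 animals 5 and 6 disagree with each other, since title and cell type name opposite gates, and results are also given without this pair. The CD45- library of 66cl4 animal 7 was unlike the rest of its group for several members (below). Fewer cells of a type and less RNA per cell cannot be told apart in such bulk libraries.

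**Figure D1:**
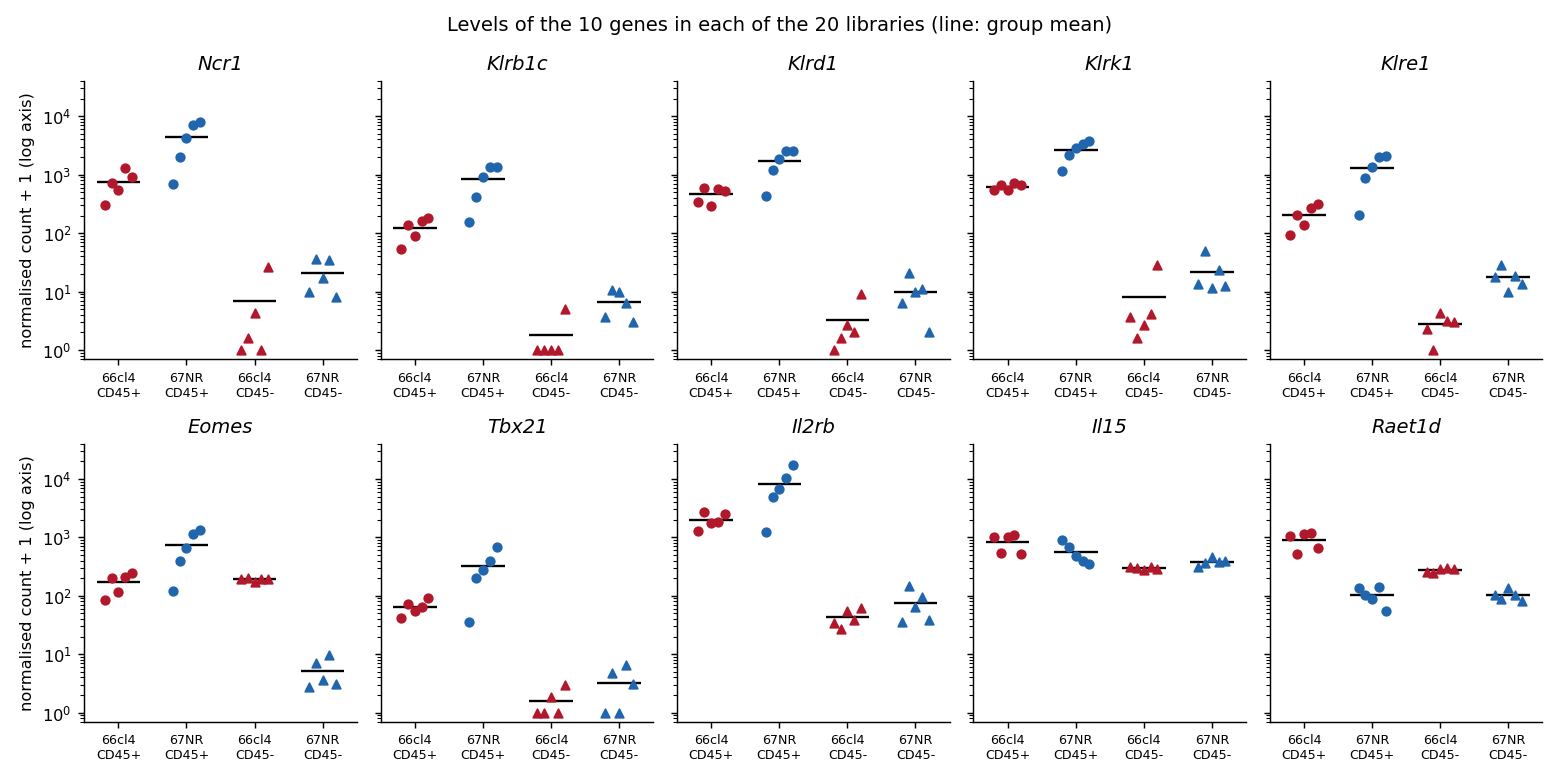
Normalised count + 1 on a log axis of the 10 genes in the 20 libraries, with circles for CD45+ and triangles for CD45- libraries, red for 66cl4 and blue for 67NR, and a line at each group mean. Eomes at 173 to 200.1 in the 66cl4 CD45- libraries stands apart from the receptors, and Raet1d is higher in every 66cl4 library than in any 67NR library of the same gate.

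Sequences upstream of 4 receptor genes are shown, which were picked because a window of each held the letters TGTGGT. RefSeq promoter windows of 250 bases before a transcription start (build GRCm38.p6) were found for 7 of the 10 genes. They were searched on both strands for TGTGGT, the core letters bound by Runx factors, which act in lymphocyte development, and for GGTGTG, the core letters bound by T-box factors. The TGTGGT letters lay in a window of 4 members, and capitals mark them or their reverse complement, ACCACA. An Ncr1 window (chr7:4337474-4337723, plus strand) held them at -185 and -50 from the start, the Klrb1c window (chr6:128788642-128788891, minus strand) at -89, the Klrk1 window (chr6:129623865-129624114, minus strand) at -129 and a Klre1 window (chr6:129577963-129578212, plus strand) at -229. A window of another Klre1 start (chr6:129578036-129578285) held 0 matches, as did the windows of Eomes, Tbx21 and Raet1d. Eomes and Tbx21 also varied with the receptors across the CD45+ libraries (below), with correlations to Ncr1 of 0.975 and 0.917.
Ncr1: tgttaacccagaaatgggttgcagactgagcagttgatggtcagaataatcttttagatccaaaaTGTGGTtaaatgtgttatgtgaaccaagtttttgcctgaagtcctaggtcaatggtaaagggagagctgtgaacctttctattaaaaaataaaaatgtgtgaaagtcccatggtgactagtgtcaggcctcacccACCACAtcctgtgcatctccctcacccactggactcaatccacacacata
Klrb1c: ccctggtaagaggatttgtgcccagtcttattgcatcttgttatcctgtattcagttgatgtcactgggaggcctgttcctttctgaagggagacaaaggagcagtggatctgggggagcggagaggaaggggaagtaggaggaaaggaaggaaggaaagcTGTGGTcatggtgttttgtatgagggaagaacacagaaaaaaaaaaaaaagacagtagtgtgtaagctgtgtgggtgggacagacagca
Klrk1: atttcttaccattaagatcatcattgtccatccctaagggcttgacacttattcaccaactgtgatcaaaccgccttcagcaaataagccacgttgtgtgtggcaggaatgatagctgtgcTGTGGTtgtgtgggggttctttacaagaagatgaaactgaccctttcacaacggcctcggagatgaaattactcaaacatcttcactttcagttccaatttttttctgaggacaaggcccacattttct
Klre1: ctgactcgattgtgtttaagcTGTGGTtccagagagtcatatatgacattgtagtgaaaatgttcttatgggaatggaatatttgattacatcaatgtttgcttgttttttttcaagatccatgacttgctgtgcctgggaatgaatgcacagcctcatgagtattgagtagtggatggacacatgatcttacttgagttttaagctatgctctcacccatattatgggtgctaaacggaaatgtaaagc
Of 32851 windows of the same length over all genes, 14.0% held TGTGGT or its reverse complement, and 16.3% held GGTGTG or its reverse complement, which was in 0 windows of the members. A match of letters is no evidence of binding, and the absence of a match says only that these letters are not in the window. Klre1, Klrd1 and Klrk1 are consecutive coding genes on chromosome 6 in RefSeq, and Klrb1c lies on the same chromosome between Klrb1 and Klrb1b.

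The 5 receptor genes were lower in CD45+ cells of 66cl4 than of 67NR tumours. Ncr1 encodes NKp46, a receptor found on NK cells and some other innate lymphocytes. Its level was 299, 723, 538, 1304 and 911 in the 66cl4 and 698, 2016, 4277, 7060.2 and 8004 in the 67NR CD45+ libraries. The 67NR library of animal 1 lay within the 66cl4 range, and the other 4 lay above it. The mean was 755 ± 381 (SD, n = 5) against 4411 ± 3141 (SD, n = 5), and the log2 fold change of 66cl4 against 67NR was -2.51 (SE 0.608).

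Klrb1c encodes NK1.1, the classical NK cell antigen of C57BL/6 mice, whose antibody epitope BALB/c mice lack. Its level was 52.9, 134, 87.7, 163 and 177 in 66cl4 and 155, 411, 913, 1331 and 1337 in 67NR CD45+ libraries, with a log2 fold change of -2.71 (SE 0.551). The lowest 67NR library, again animal 1, overlapped the 66cl4 range. Of the 2984 stretches of 31 bases in Klrb1c transcripts of the GENCODE M21 annotation, 21.2% also occur in other genes, so that part of its counts is uncertain.

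Klrd1 encodes CD94 and had levels of 337, 587, 287, 562 and 518 in 66cl4 and 431, 1216, 1886, 2519 and 2499 in 67NR CD45+ libraries (log2 fold change -1.87, SE 0.415). Klre1, a lectin-like receptor of the same cluster, had levels of 91.8, 203, 139, 273 and 318 against 204, 859.5, 1352, 2038 and 2058 (log2 fold change -2.63, SE 0.553). For both genes 4 libraries of 67NR lay above every 66cl4 library and that of animal 1 did not.

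Klrk1, which encodes NKG2D, was the member among the 5 receptor genes whose libraries did not overlap. Its level was 537, 673, 539, 709 and 658 in 66cl4 and 1159.7, 2148, 2859, 3316 and 3741 in 67NR CD45+ libraries. The mean of 623 ± 79.9 (SD, n = 5) in 66cl4 stood against 2645 ± 1019 (SD, n = 5) in 67NR, and the log2 fold change was -2.06 (SE 0.251). The 66cl4 libraries were closer to each other in Klrk1 than in Ncr1.

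Both T-box factors were also lower in 66cl4 CD45+ cells. Eomes was at 84.8, 202, 114, 207 and 242 in 66cl4 and 120.2, 396, 657, 1152 and 1359 in 67NR CD45+ libraries, with a log2 fold change of -2.07 (SE 0.550). Tbx21 was at 40.3, 71.7, 54.0, 63.1 and 90.4 in 66cl4 and 34.3, 197, 277, 395 and 680.0 in 67NR, with a log2 fold change of -2.26 (SE 0.572). In both genes the 67NR library of animal 1 lay in or below the 66cl4 range.

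Il2rb encodes the receptor chain shared by interleukins 2 and 15 and is also expressed by T cells. It was at 1285, 2678, 1755, 1804 and 2530.5 in 66cl4 and 1255, 4936, 6709.8, 10326 and 17167 in 67NR CD45+ libraries, with a log2 fold change of -1.96 (SE 0.529). The 67NR values ranged over more than those of any other member on this scale, and the library of animal 1 was again below or within the 66cl4 libraries.

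Of the ligand genes, Raet1d went the other way and Il15 was not called. Il15 was at 1014, 534, 999, 1093 and 528 in 66cl4 and 897, 689, 483, 387 and 353 in 67NR CD45+ libraries (834 ± 278 against 562 ± 229, SD, n = 5 each). The groups overlapped, and the log2 fold change of 0.57 (SE 0.311) did not pass the threshold. Raet1d was at 1051, 522, 1143, 1187 and 667 in 66cl4 and 133, 103, 87.4, 143 and 53.5 in 67NR CD45+ libraries, so that the 66cl4 libraries were all above those of 67NR. The mean was 914 ± 300.2 against 104 ± 35.8 (SD, n = 5 each), a ratio of 8.80 that ranged from 7.84 to 9.74 when single libraries were left out, and the log2 fold change was 3.14 (SE 0.313).

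A gene was called when the adjusted p-value of edgeR's quasi-likelihood test was under 0.05 and the absolute log2 fold change over 1. Among all 14676 genes tested in CD45+ cells, 5.01% were called higher and 6.82% lower in 66cl4. Of the 10 members, all tested, 1 was called higher (Raet1d) and 8 lower, and since these fold changes were known when the members were chosen, nothing is read from the counts. Without 66cl4 animals 5 and 6 the calls of Eomes (log2 fold change -2.04), Tbx21 (-2.20) and Il2rb (-1.88) were lost, and without the filter on low counts those of Ncr1, Eomes, Tbx21 and Il2rb. That of Il2rb was also lost without the 66cl4 CD45+ library of animal 3. Ncr1 (-2.75), Klrb1c (-2.75), Klrd1 (-1.82), Klrk1 (-2.08), Klre1 (-2.65) and Raet1d (2.85) stayed called without animals 5 and 6.

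**Figure D2:**
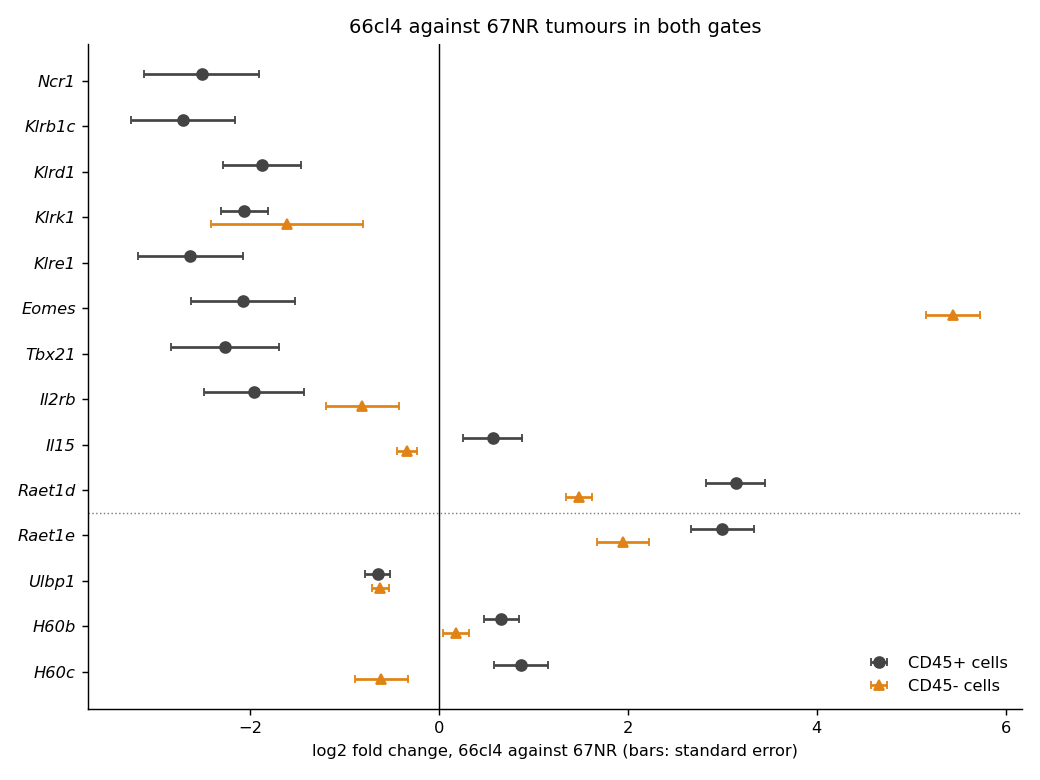
Log2 fold change of 66cl4 against 67NR with its standard error for the 10 genes and, under the dotted line, 4 further NKG2D ligand genes, in CD45+ cells (circles) and, for genes that passed the filter on low counts, CD45- cells (triangles). Eomes is negative in CD45+ cells (-2.07) and positive in CD45- cells (5.44), and Raet1d and Raet1e are positive in both.

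On a scale per transcript length (TPM) the members' order of level differed between the tumours. In 67NR CD45+ cells Ncr1 was at 204 ± 151 TPM (SD, n = 5), Il2rb at 181 ± 140.4 TPM and Klrd1 at 173 ± 96.2 TPM, and these 3 did not differ beyond their spread. Klrk1 followed at 103 ± 43.8 TPM, Klre1 at 57.6 ± 36.7 TPM, Il15 at 48.6 ± 16.4 TPM and Klrb1c at 39.1 ± 26.4 TPM, each within the spread of its neighbour. This spread is that between libraries. Within every 67NR CD45+ library, Klre1 was below Klrk1 and Klrb1c below Klre1. The order of genes also rests on the mean transcript lengths used. The transcription factors were lower, with Eomes at 18.7 ± 13.7 TPM and Tbx21 at 8.71 ± 6.85 TPM, and Raet1d was last at 5.07 ± 1.77 TPM. On average Il15 led in 66cl4 CD45+ cells at 71.9 ± 19.2 TPM, followed by Klrd1 at 45.4 ± 15 TPM and Il2rb at 44.3 ± 16.3 TPM. Raet1d came next at 43.8 ± 11.4 TPM, then Ncr1 at 33.1 ± 14.8 TPM and Klrk1 at 23.7 ± 3.8 TPM. Within single 66cl4 libraries Il15 led only in animals 3, 5 and 6, and the labels of animals 5 and 6 disagree (above). In animals 4 and 7, Klrd1 (63.3 and 55.8 TPM) was above Il15 (51.6 and 50.9 TPM), as was Il2rb. Il15 was also the highest member in 67NR animal 1 (70.2 TPM). By mean level Raet1d was thus the lowest of the 10 genes in 67NR, where its spread overlapped those of Tbx21 and Eomes, and the fourth in 66cl4, where it overlapped those of Klrd1, Il2rb and Ncr1. In 67NR animal 1, Tbx21 (0.809 TPM) and Eomes (2.62 TPM) were below Raet1d (5.77 TPM).

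The 8 receptor and regulator genes moved together from animal to animal. Over the 10 CD45+ libraries, the Pearson correlations of their log2 deviations from the group means ran from 0.906 to 0.991 over the 28 pairs (median 0.960). The points of all pairs are the same libraries, and the correlations are a description. Il15 went against the 8 genes with correlations of -0.841 to -0.710, and Raet1d with -0.582 to -0.363. Of 11696 genes ranked over these libraries by the same measure, the 5 nearest to Ncr1 were Klrb1c (0.987), Klra3 (0.982), Klrb1a (0.981), Ctla2a (0.981) and Klri2 (0.979), 4 of which encode lectin-like NK cell receptors.

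Neutrophil transcripts moved with part of these differences, and markers of other cells did as well. The summed level of 5 neutrophil marker genes was 107982, 56383, 116886, 107418 and 41783 in the 66cl4 and 48103, 25986, 15826, 14319 and 6700.4 in the 67NR CD45+ libraries. Of the 5 genes, 4 were called higher in 66cl4, beside 5.01% of all genes tested. In 67NR the library with the most neutrophil transcript, animal 1, had the lowest Ncr1 (698) and the highest Il15 (897), and the library with the least, animal 7, had the highest Ncr1 (8004) and the lowest Il15 (353). Among 66cl4 CD45+ libraries, animals 3, 5 and 6, with the highest neutrophil sums, had Il15 at 1014, 999 and 1093 and Raet1d at 1051, 1143 and 1187. Animals 4 and 7, with the lowest sums, had Il15 at 534 and 528 and Raet1d at 522 and 667. Other values did not follow this order, since the highest Ncr1 of 66cl4 (1304) was in animal 6, with a sum of 107418, and the highest Raet1d of 67NR (143) was in animal 6, with a sum of 14319. Over the 10 CD45+ libraries, deviations of Ncr1 from the group means correlated at -0.786 with those of the neutrophil sum. The correlation was 0.646 with the sum of T cell markers, 0.563 with that of B cell markers and 0.303 with that of macrophage and monocyte markers. The part of neutrophils or of these other cells in the differences between tumours was not tested.

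**Figure D3:**
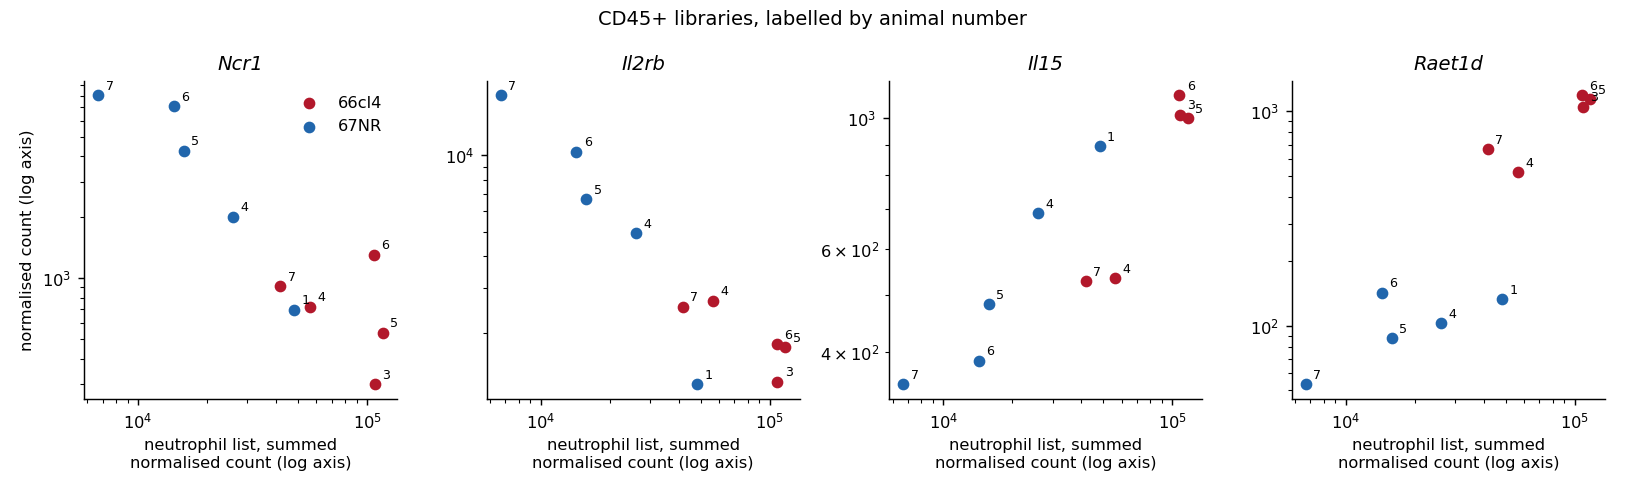
Normalised count of Ncr1, Il2rb, Il15 and Raet1d against the summed normalised count of 5 neutrophil marker genes in the 10 CD45+ libraries, both on log axes, with the animal number beside each point (red 66cl4, blue 67NR). In 67NR, Ncr1 is at 8004 and Il15 at 353 in the library with the least neutrophil transcript, and they are at 698 and 897 in that with the most. Raet1d is higher in each 66cl4 library than in any 67NR library.

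T cell and B cell markers did not pass the test between the tumours. Of 10 T cell marker genes 0 were called in CD45+ cells by edgeR, with 0 at an unadjusted p under 0.05. Their summed level was 1857 to 7961 in 66cl4 and 2037 to 6418 in 67NR. The ratio of Ncr1 to this sum was 0.0919 to 0.290 (median 0.114) in 66cl4 and 0.314 to 1.71 (median 0.753) in 67NR, so that on this scale every 67NR library lay above every 66cl4 library, animal 1 included. The same ratio for Klrk1 was 0.0826 to 0.290 against 0.335 to 0.801, and that of Il2rb was 0.258 to 0.945 against 0.616 to 3.67, which overlap. The summed level of 5 B cell genes was 147 to 15112 in 66cl4 and 362 to 2903 in 67NR, with 0 of 5 called and 2 at an unadjusted p under 0.05. Of all genes tested in CD45+ cells, 5.01% were called higher and 6.82% lower.

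Lymphocytes other than NK cells also express several of the members. Of 4 tested gamma-delta T cell genes, 2 were called lower in 66cl4, among them Trdc at 653 ± 219 against 2744 ± 1926 (SD, n = 5 each; log2 fold change -2.03, SE 0.510, edgeR adjusted p = 0.0175). Of 7 tested innate lymphoid cell genes, 3 were called lower (Cxcr6, Il1rl1 and Il13) and 1 higher (Il7r). Of 6 macrophage and monocyte genes 2 were called lower, of 5 dendritic cell genes 1 lower, of 4 epithelial genes 2 higher, of 4 fibroblast genes 2 lower and of 3 endothelial genes 1 lower. Among all genes tested in CD45+ cells, 5.01% were called higher and 6.82% lower, and nothing about these cell types is read from such short lists. The part of these cells in the levels of the members was not tested.

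The other genes of the NK cell pathway were taken from 7 lists, compiled with earlier results of these data known, which leave out the members. In CD45+ cells 1 of 83 tested list genes was called higher in 66cl4 and 32 lower, beside the 5.01% and 6.82% of all genes. The median log2 fold change was -0.60 against 0.01 over all genes tested. Since earlier results were known when the lists were compiled, these counts are no evidence about the lists. The counts and adjusted p-values given below for single lists are likewise a description. Without 66cl4 animals 5 and 6 the number called was 20 in place of 33. Leaving out single libraries gave 26 to 35. The lists differed from each other, from receptors and effectors that were mostly lower to the interleukin pathway, in which 0 genes were called.

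**Figure D4:**
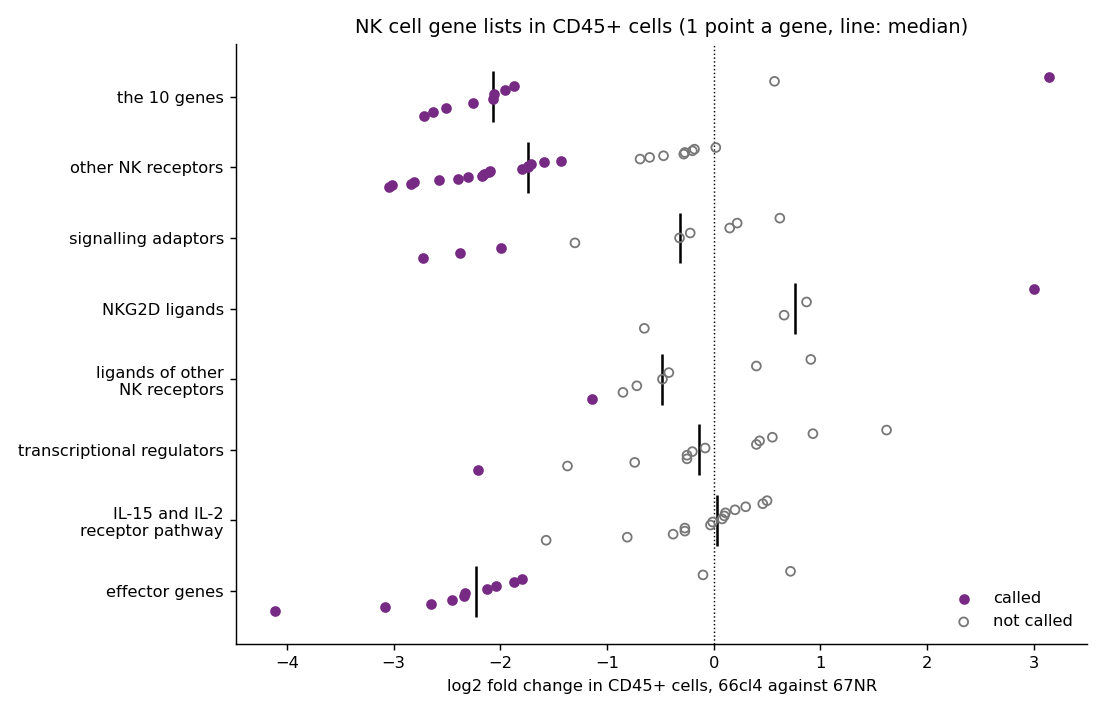
Log2 fold change of 66cl4 against 67NR in CD45+ cells for each gene tested of the 10 members and the 7 lists, with filled points for called genes, open points for the others and a line at each median. The medians of other NK receptors (-1.74) and effector genes (-2.22) lie left of 0, and that of the IL-15 and IL-2 receptor pathway (0.03) lies near it.

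Among other NK cell receptors, 17 of 25 tested were called lower and 0 higher in 66cl4 CD45+ cells (median log2 fold change -1.74). Of all genes tested, 6.82% were called lower and 5.01% higher. Without 66cl4 animals 5 and 6, 10 were called lower. The called genes without overlap between the libraries are named here, and all belong to the killer lectin-like families. The share of all genes tested that lacked overlap was not counted. Klra4, a receptor of the Ly49 family, was at 11 in 66cl4 and 94.4 in 67NR on average (log2 fold change -3.04, SE 0.525, edgeR adjusted p = 0.00195). Klra3, of the same family, was at 175 to 442 in 66cl4 and 521 to 4831 in 67NR (-3.01, SE 0.536, adjusted p = 0.00322). Klri2, a receptor that pairs with Klre1, was at 210 to 427 against 490.1 to 3371 (-2.57, SE 0.469, adjusted p = 0.00366). Ly49 genes are near-identical copies, and the annotation follows C57BL/6 rather than BALB/c mice. Their separate counts, that of Klra4 included, are therefore uncertain.

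The adaptors that serve these receptors did not all move together. Hcst, which encodes DAP10, the partner of NKG2D, had mean levels of 229 in 66cl4 and 292 in 67NR CD45+ cells (log2 fold change -0.32, SE 0.357), and Cd247 had 327 and 392 (-0.22, SE 0.556). Tyrobp (0.22, SE 0.238) and Fcer1g (0.15, SE 0.181), which myeloid cells also express, were not called either, nor were Zap70 (-1.30, SE 0.511) and Syk (0.62, SE 0.151). The adaptors of the SLAM-family receptors were called lower in 66cl4. Sh2d1b1 was at 123 to 158 against 378 to 1153 (-2.38, SE 0.225, edgeR adjusted p = 6.1e-05), Sh2d1b2 at 65.4 to 119 against 169 to 1248 (-2.72, SE 0.477, adjusted p = 0.00289), and Sh2d1a had a log2 fold change of -1.99 (SE 0.582, adjusted p = 0.0333). Without 66cl4 animals 5 and 6, 2 adaptors were called lower in place of 3.

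The effector genes of cytotoxic lymphocytes held the largest differences. Of 12 tested, 10 were called lower in 66cl4 CD45+ cells and 0 higher (median -2.22), beside 6.82% and 5.01% of all genes tested. Without 66cl4 animals 5 and 6 the number called lower was 5. Gzma, which encodes granzyme A, was at 289, 637, 1215, 2416 and 1152 in 66cl4 and 3365, 6607, 21729, 30193 and 39388 in 67NR. The groups did not overlap (log2 fold change -4.11, SE 0.759, edgeR adjusted p = 0.00399). Ifng, which encodes interferon gamma, was at 25.1 to 68.5 in 66cl4 and 108 to 617 in 67NR (-3.08, SE 0.430, adjusted p = 0.000769). Ccl5, a chemokine of T and NK cells, was at 1290.1 to 1711 against 2209 to 11558 (-2.34, SE 0.328, adjusted p = 0.000725).

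Regulators other than the members were mostly not called in CD45+ cells. Of 12 transcriptional regulators 1 was called lower, Tox2 (mean 8.27 against 39.9, log2 fold change -2.21, SE 0.474, edgeR adjusted p = 0.00654), and 0 higher. Of 14 genes of the IL-15 and IL-2 receptor pathway 0 were called by edgeR, with 5 at an unadjusted p under 0.05. Il15ra, which presents interleukin 15, was at 214 in 66cl4 and 282 in 67NR on average (-0.38, SE 0.137), Il2rg, the shared gamma chain, at 3464 and 3559 (-0.01, SE 0.252), and Il2ra at 648 and 478 (0.46, SE 0.159). Of 7 tested ligands of other NK receptors 1 was called lower, Cadm1, the ligand of Crtam (-1.14, SE 0.181, adjusted p = 0.00123).

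Raet1d and Raet1e are shown together because they share much of their sequence. Upstream of the Raet1d start (chr10:22361644-22361893, plus strand, GRCm38.p6) and of a Raet1e start (chr10:22173247-22173496, plus strand), 3 of 248 aligned bases differ, which capitals mark. Of the Raet1e windows, the one most like that of Raet1d was picked. The 30 bases after these 2 starts were not found in the GENCODE M21 transcripts, whereas those after another Raet1e start (chr10:22158319-22158568), whose window had fewer matching bases, were.
Raet1d: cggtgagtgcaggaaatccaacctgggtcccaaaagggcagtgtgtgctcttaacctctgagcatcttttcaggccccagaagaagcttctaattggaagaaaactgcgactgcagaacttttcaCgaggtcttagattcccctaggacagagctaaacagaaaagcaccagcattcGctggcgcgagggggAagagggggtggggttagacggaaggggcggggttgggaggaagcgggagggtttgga
Raet1e: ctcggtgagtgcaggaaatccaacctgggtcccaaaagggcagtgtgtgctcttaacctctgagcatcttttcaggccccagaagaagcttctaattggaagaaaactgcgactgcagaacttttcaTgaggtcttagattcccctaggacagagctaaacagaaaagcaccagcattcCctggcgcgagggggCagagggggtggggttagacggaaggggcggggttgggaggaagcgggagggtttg
Of the 1409 stretches of 31 bases in Raet1d transcripts of the GENCODE M21 annotation, 67.1% also occur in Raet1e. The division of reads between both genes is therefore uncertain. The annotation follows C57BL/6 mice, and BALB/c mice are known to carry other Rae-1 isoforms, so that reads counted for Raet1d may belong to another Rae-1 gene. Raet1a, Raet1b, Raet1c and H60a had no matching identifier and were not analysed here.

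Raet1e had the same pattern as Raet1d. It was at 456, 239.8, 609, 572 and 317 in 66cl4 and 84.3, 58.3, 47.8, 58.7 and 26.7 in 67NR CD45+ libraries, with no overlap (log2 fold change 3.0, SE 0.336, edgeR adjusted p = 0.000203). In CD45- libraries it was at 91.6, 103, 99.1, 163 and 62.9 in 66cl4 and 21.9, 18.8, 38.6, 23.4 and 34.8 in 67NR, again with no overlap (1.95, SE 0.276, adjusted p = 2.47e-05). With so many shared stretches, Raet1e is no separate evidence of the pattern.

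The other NKG2D ligand genes differed less. Ulbp1, which encodes MULT1, was lower in every 66cl4 library than in any 67NR library of the same gate, with a log2 fold change of -0.65 (SE 0.137) in CD45+ and -0.62 (SE 0.0869) in CD45- cells, under the fold threshold. H60b was at 107 to 177 in 66cl4 and 63.8 to 95.9 in 67NR CD45+ libraries (0.66, SE 0.186) and overlapped in CD45- cells (0.18, SE 0.135). H60c had a log2 fold change of 0.87 (SE 0.283) in CD45+ and -0.61 (SE 0.279) in CD45- cells, and this difference between the gates of 1.5 (SE 0.381) passed the threshold of edgeR's interaction test (adjusted p = 0.00366). Of the 4 NKG2D ligand genes besides Raet1d, 1 was called in each gate, Raet1e.

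In CD45- cells the receptor genes and Tbx21 had few counts. Of the 10 members 5 passed the filter on low counts (Klrk1, Eomes, Il2rb, Il15 and Raet1d), and since a gene can pass through the group in which it is high, these 5 do not stand for the 10. Among all 14844 genes tested in CD45- cells, 13.2% were called higher and 18.9% lower in 66cl4, and 2 members were called higher (Eomes and Raet1d). Ncr1 had counts that gave levels of 0, 0.623, 3.33, 0 and 25.0 in 66cl4 and 8.77, 34.5, 15.8, 33.6 and 7.16 in 67NR CD45- libraries. Klrb1c was at 0 in 66cl4 CD45- libraries other than that of animal 7, and Tbx21 had 0 to 2 counts a library there and 0 to 7 in 67NR. Klrd1 was at 0 to 7.99 in 66cl4 and 1.02 to 19.5 in 67NR CD45- libraries, and Klre1 at 0 to 3.33 against 8.78 to 27.0. Klrk1 was at 2.65, 0.623, 1.66, 3.19 and 27.0 in 66cl4 and 12.3, 48.0, 10.5, 22.7 and 11.2 in 67NR, and its log2 fold change of -1.61 was not called, whereas it was -3.41 and called without the 66cl4 library of animal 7. Without this library 5 members were called, in place of 2. Il2rb was at 33.2, 25.6, 54.9, 37.2 and 60.9 against 35.1, 149, 62.3, 93.0 and 37.8, with overlap.

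Eomes was present in 66cl4 CD45- cells at the level of the CD45+ cells of the same tumours. Its level was 191, 200.1, 173, 191 and 193 in 66cl4 and 1.75, 6.0, 2.63, 8.59 and 2.05 in 67NR CD45- libraries. The 66cl4 libraries were close to each other, at 189.7 ± 9.95 against 4.21 ± 2.98 (SD, n = 5 each), a ratio of 45.1 that ranged from 39.4 to 61.0 when single libraries were left out. The log2 fold change was 5.44 (SE 0.287) and 5.5 without animals 5 and 6. The CD45- libraries of 66cl4 with this level had Ncr1 at 0 to 25.0 and the summed T cell markers at 21.2 to 56.9. Markers of epithelial cells (Krt8, Krt18, Epcam and Cdh1) had a sum of 6037 to 6816 in the same libraries and of 107 to 368 in 67NR CD45- libraries. They did not move together, since Krt8 (log2 fold change 6.47) and Krt18 (4.32) were called higher in 66cl4, Epcam (-1.41) was called lower and Cdh1 (-0.65) was not called. Their part in the level of Eomes was not tested.

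Raet1d and Il15 were also expressed outside the leukocyte gate. Raet1d was at 256, 247, 289.7, 302 and 282 in 66cl4 and 104, 85.5, 133, 101 and 80.8 in 67NR CD45- libraries (275 ± 23.1 against 101 ± 20.3, SD, n = 5 each). The groups did not overlap, and the ratio was 2.74 (log2 fold change 1.48, SE 0.140). Il15 was at 311, 297, 275, 312 and 282 in 66cl4 and 312, 362, 456, 381 and 399 in 67NR CD45- libraries. Here the direction was that of a slightly lower level in 66cl4 (-0.34, SE 0.106), under the fold threshold, and the highest 66cl4 and the lowest 67NR library were both at 312. Of 11380 genes ranked over the CD45- libraries, the 3 whose deviations were nearest to Raet1d were Erc2 (0.958), Slc25a26 (0.910) and Foxd1 (0.876), over 10 libraries and as a description.

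Other genes of the NK cell lists were also detected in CD45- cells, where 40 of 90 were tested. Of these, 7 were called higher and 12 lower in 66cl4, beside 13.2% and 18.9% of all genes tested. A gene can pass the filter on low counts through the group in which it is high. The 40 genes therefore do not stand for the 90, and nothing is read from these counts. The regulators Id2 (log2 fold change 1.91, SE 0.161, edgeR adjusted p = 1.80e-07), Gata3 (1.72, SE 0.113, adjusted p = 1.03e-08), Nfil3 (1.59, SE 0.231, adjusted p = 5.43e-05) and Tcf7 (1.56, SE 0.226, adjusted p = 3.05e-05) were called higher with no overlap. Tigit, an inhibitory receptor of T and NK cells, was at 688 to 1376 in 66cl4 and 58.8 to 157 in 67NR CD45- libraries (3.22, SE 0.250, adjusted p = 2.32e-07). Il18rap, a chain of the interleukin 18 receptor, had mean levels of 2485 against 218 (3.54, SE 0.181, adjusted p = 1.27e-09). Called lower were, among others, Klra2 (-4.39, SE 0.181, adjusted p = 9.13e-11), Cish, a target of the interleukin pathway (-2.50, SE 0.372, adjusted p = 4.02e-05), Ccl5 (-3.99, SE 0.328, adjusted p = 8.47e-07) and Ifng (-4.69, SE 0.591, adjusted p = 8.17e-06). The level of Ptprc itself was 10.6 to 161 in 66cl4 and 145 to 473 in 67NR CD45- libraries, and its part in the lower genes was not tested.

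CD45+ and CD45- libraries of each tumour type were set against each other to see where the members were expressed. The main fits had no term for the animal, so that both libraries of a mouse were treated as independent. In 66cl4 tumours 9 of 10 members were called higher in CD45+ than in CD45- cells, beside 23.9% of the 14916 genes tested higher and 20.5% lower. In 67NR tumours 8 of 10 were called higher, beside 20.2% of 15063 genes higher and 19.6% lower. For the 5 receptor genes and Tbx21, the summed counts of the CD45- libraries corresponded to a level of 0.468% to 1.01% of the CD45+ level in 66cl4 and of 0.455% to 1.23% in 67NR. For Ncr1 it was 0.700% (95% exact interval 0.471% to 1.0%) in 66cl4 and 0.455% (0.378% to 0.543%) in 67NR, where intervals cover counting error only. The 66cl4 values of 4 receptor genes rest on the CD45- library of animal 7. By animal, Ncr1 was at 2.74% in animal 7 and 0 to 0.619% in the other 4, and Klrk1 at 4.10% and 0.0927% to 0.494%. Klrd1 was at 1.54% in animal 7 and 0 to 0.579% in the others, and the 4 counts of Klrb1c were all from animal 7. Without this library the log2 fold change between the gates of 66cl4 was 9.27 in place of 7.03 for Ncr1 and 8.34 in place of 6.52 for Klrk1. In 67NR the values by animal ran from 0.0894% to 1.71% for Ncr1 and from 0.596% to 8.15% for Klre1. Il2rb was at 1.99% (1.74% to 2.27%) and 0.926% (0.844% to 1.02%). Of the genes in the 7 lists, 66 of 78 tested were called higher and 5 lower in CD45+ cells of 66cl4 tumours, and 67 of 81 higher and 3 lower in 67NR tumours.

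The 3 remaining genes did not follow the gate in this way. Eomes in CD45- cells was at 108% (98.2% to 118%) of its CD45+ level in 66cl4 and at 0.571% (0.373% to 0.839%) in 67NR, and its log2 fold change between the gates was -0.17 (SE 0.248) in 66cl4 and 7.34 in 67NR. By animal the share of Eomes in 66cl4 was 225%, 99.3%, 152%, 92.3% and 79.7%. Raet1d was at 30.6% (28.9% to 32.5%) in 66cl4 and 100.2% (88.4% to 114%) in 67NR, with log2 fold changes of 1.70 (SE 0.207) and 0.04 (SE 0.260). Il15 was at 36.4% (34.3% to 38.6%) in 66cl4 and 70.6% (66.6% to 74.8%) in 67NR, with log2 fold changes of 1.46 (SE 0.204) and 0.56 (SE 0.252). The share of Il15 varied between animals, from 27.5% to 55.7% in 66cl4 and from 34.8% to 113% in 67NR.

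**Figure D5:**
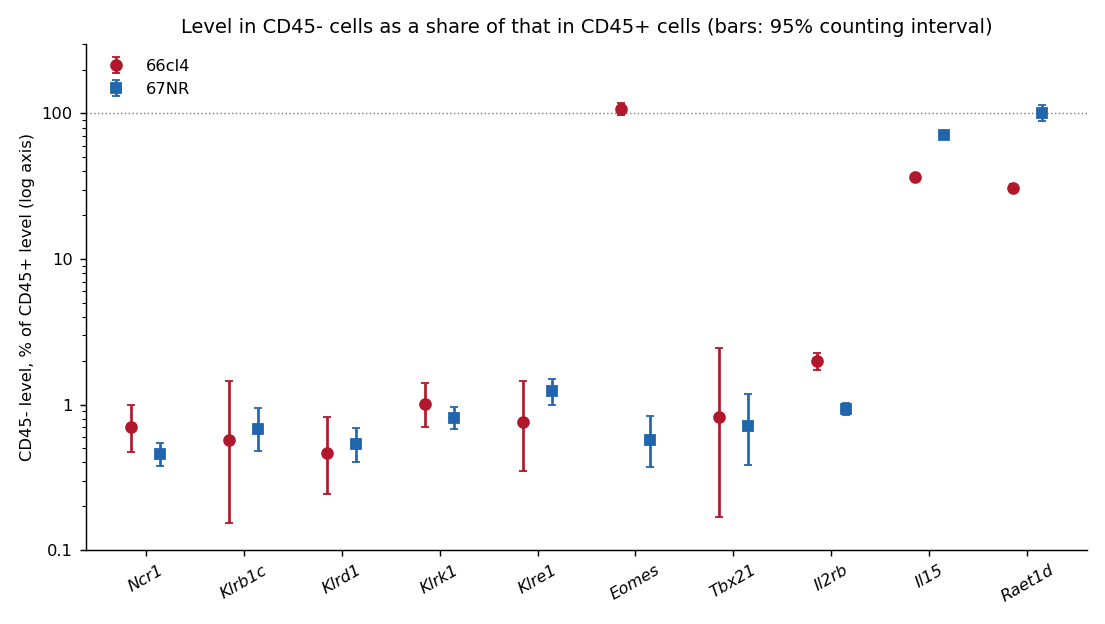
Level in CD45- cells as a percentage of the level in CD45+ cells of the same tumour type, from summed counts over 5 animals, on a log axis with 95% exact counting intervals (red 66cl4, blue 67NR, dotted line at equal levels). The receptors, Tbx21 and Il2rb lie between 0.455% and 1.99% in both tumours, where the 66cl4 values of Ncr1, Klrk1, Klrd1 and Klrb1c rest on animal 7 (Ncr1 at 2.74% there and 0 to 0.619% in the other 4), Eomes is at 108% in 66cl4 and 0.571% in 67NR, and Raet1d is at 30.6% and 100.2%.

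Whether the effect of the tumour depended on the gate was estimated as an interaction over the 20 libraries, called with an adjusted p-value under 0.05. The interaction fit had no term for the animal either. Among 16453 genes 21.9% were called higher and 21.2% lower, and of the 10 members Raet1d and Il15 were called higher in this sense and Eomes lower. The interaction of Eomes was -7.52 (SE 0.761) on the log2 scale, the joint outcome of its lower level in CD45+ and higher level in CD45- cells of 66cl4 tumours. That of Raet1d was 1.68 (SE 0.333), in that the excess in 66cl4 was greater in CD45+ cells. That of Il15 was 0.93 (SE 0.331), and its call was lost without 66cl4 animals 5 and 6 (0.70) and in 12 of 20 fits that left out a single library. The interactions of the other 7 members were not called, which does not show that their tumour effects were alike in both gates. Of 83 tested list genes 21 were called higher and 7 lower. Among the 7 are genes named above for CD45- cells, chosen here after those values were seen. Tigit (-4.81, SE 0.432, edgeR adjusted p = 4.47e-08), Il18rap (-3.04, SE 0.261, adjusted p = 1.79e-08) and Gata3 (-2.46, SE 0.291, adjusted p = 1.4e-06) had negative interactions, as had Eomes, and Il15ra, which presents interleukin 15, had one of -0.97 (SE 0.171, adjusted p = 0.000148).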

How the data were processed

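The 10 members and all gene lists were chosen with earlier results of these data known. Per the labels, total RNA of sorted cells was sequenced. Per the paper's methods, libraries were made from mRNA with a SENSE kit, read from a single end and quantified with Salmon 1.3.0 (version from the submitters' processing notes). The authors deposited estimated counts per gene, summed over transcripts and not normalised. Methods and notes name GRCh38, a human build, whereas the identifiers are those of mouse, so no coordinates of counted genes are given. Estimation divides reads among similar genes, which makes counts of gene families uncertain.

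Groups follow the sample titles. Counts were rounded (largest change 0.5) and fitted by quasi-likelihood in edgeR 4.0.16 under R 4.3.3 (TMM, filterByExpr with a minimum count of 10 and total of 15, robust fit, Benjamini-Hochberg adjustment over all genes tested). Only the groups compared entered a fit, except for the interaction over 20 libraries. The study's methods name DESeq2, which was run as an alternative (1.42.0) and supplied the size factors of normalised counts. TPM used mean GENCODE M21 transcript lengths. Symbols were matched for 51492 identifiers, and 90 of 94 list genes were found. Correlations used log2 of the normalised count plus 1. RefSeq promoter sequences are of GRCm38.p6. The fits were also run on simulated counts with the same dispersion for every gene. Several members had a wider spread, so the simulation does not show how the fits behave for them.

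Named beside the members are every NKG2D ligand, the adaptors, Il15ra, Il2rg and Il2ra, and up to 4 called genes per other list with the largest absolute log2 fold change and no overlap between groups. Marker genes come from lists of 10 other cell types. CD45+ and CD45- libraries with the same tumour and number are taken as paired by origin, but the main fits do not use this pairing. Their deviations from the group means correlated at 0.036 to 0.204 in 66cl4 and -0.012 to 0.356 in 67NR. Between tumours only a number is shared. The titles hold a number, which is read here as that of the animal. No label states that each animal is of a separate litter or day, and p-values measure the spread between these animals. Alternatives were DESeq2, RLE scaling, omission of the filter, a stricter filter (10 counts in at least 5 libraries), joint fits of the 20 libraries, a replicate block, leaving out 66cl4 animals 5 and 6, leaving out each library, and CPM or TPM for levels.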

Additional observations from a re-analysis of the deposited data

Results flagged for a closer look

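In the CD45- libraries of 66cl4 tumours, that of animal 7 lay far from the other 4 in 4 receptor genes. Ncr1 had a normalised count of 25.0 there and 0 to 3.33 in the others, and Klrk1 had 27.0 against 0.623 to 3.19. Klrd1 had 7.99 against 0 to 1.66, and Klrb1c had 3.99 against 0. These rest on 25, 27, 8 and 4 counts. In the same library Ptprc was at 161, the highest of its group, and the summed T cell markers were at 56.9 against 21.2 to 30.8. Of 56 groups of libraries examined over the members and 4 further NKG2D ligands, 4 held a library that stood apart in this way. An assumed rate of 1 in 20 gives 2.80. All 4 are the same library, in genes that vary together, so that they are not separate events and the comparison decides nothing.

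The effect of the tumour differed between the gates, by the interaction test, for 4 of 14 genes tested, beside 21.9% of all genes called higher and 21.2% lower, so that the count is no result about these genes. On the log2 scale the interaction was -7.52 for Eomes, 1.68 for Raet1d, 0.93 for Il15 and 1.5 for H60c. The call of Il15 was lost in 12 of 20 fits that left out a single library. All 14 genes were chosen with earlier results of these data known.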

How the results depend on the processing

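With no filter on low counts, 5 members were called in CD45+ cells in place of 9, and leaving out single libraries gave 8 to 9. Leaving out 66cl4 animals 5 and 6 gave 20 called list genes there in place of 33. In CD45- cells 2 members and 19 list genes were called. DESeq2 gave 4 and 32, no filter 5 and 29, and all 20 libraries in a fit 4 and 32, while leaving out single libraries gave 2 to 5 and 18 to 28. A replicate block gave 9 members and 34 list genes in CD45+ cells, and 2 and 16 in CD45- cells. In these comparisons of tumours it joined different mice that share only a number. Animal 3 of 66cl4 and animal 1 of 67NR have no such partner and were left out. Between the gates of 67NR the block turned the log2 fold change of Raet1d from 0.04 to -0.0043. It changed no other direction or call of a member. Leaving out single libraries also moved this value from -0.08 to 0.27 and that of Eomes between the gates of 66cl4 (-0.17) from -0.30 to 0.04. Interactions that were not called turned direction as well. Without single libraries they ran from -1.18 to 1.52 for Ncr1, -0.45 to 2.89 for Klrb1c, -0.47 to 1.31 for Klrd1, -1.06 to 1.39 for Klrk1 and -1.02 to 0.54 for Tbx21, with the upper value in each case without the CD45- library of 66cl4 animal 7. A minimum of 10 counts in 5 libraries gave -0.02 for Klrb1c, and leaving out 66cl4 animals 5 and 6 gave -0.52 for Klrb1c and -0.03 for Klrd1. The interaction of Il15 (0.75 to 1.13 without single libraries) was lost in 12 of 20 such fits and in 3 of 6 others. The 12 libraries were, for 66cl4, CD45- of animals 3, 4 and 5 and CD45+ of 3, 5 and 6, and for 67NR, CD45- of 4, 5 and 7 and CD45+ of 5, 6 and 7. That of Il2rb was called without the 67NR CD45+ library of animal 1. Of the other alternative fold changes of members, 787 kept direction and side of the threshold. All 40 ratios of mean levels by CPM or TPM moved by less than the spread between replicates. The causes were not tested. With 5 libraries a group and few counts in CD45- cells, small differences in NK cell receptors there were not detectable.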
